A study of Homo sapiens with 16 samples.

Results

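The 10 genes described here encode the enzymes of de novo purine synthesis in human cells: PRPS1, PPAT, GART, PFAS, PAICS, ADSL, ATIC, IMPDH1, IMPDH2 and GMPS. They were chosen by name as members of this pathway, by a rule that uses no measured value. Earlier results of these data were known when the genes and the grouping of the libraries were chosen. All 10 were found among the 60676 gene identifiers of the deposited count tables, and all 10 were among the 21569 genes with enough reads to be tested. RNA was sequenced from A101D and MeWo, established human melanoma cell lines, in 8 libraries each, and the labels call A101D methionine dependent and MeWo methionine independent. The growth protocol, which is the same text for all 16 libraries, gives methionine at 200 µM in the control medium and homocysteine at 200 µM in its place in the other medium. No label or column header states which library had which medium. The libraries are therefore described by line and by replicate number, as replicates 1-4 and 5-8 of each line (n = 4 in each of the 4 groups), and no medium is assigned to either set. Each line stands for its methionine phenotype alone, so line and phenotype cannot be told apart. The labels do not say that replicates came from separate cultures, so the p-values measure the spread between these libraries, which may be technical.

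De novo synthesis builds the purine ring step by step on phosphoribosyl pyrophosphate (PRPP), a sugar phosphate made by the PRPS enzymes. PPAT catalyses the committed step, and GART, PFAS, PAICS, ADSL and ATIC carry the chain on to inosine monophosphate (IMP), taking single-carbon units from 10-formyl-tetrahydrofolate on the way. From IMP, IMPDH1 or IMPDH2 and then GMPS lead to GMP, while the adenylosuccinate synthetases and ADSL lead to AMP. Proliferating cells draw on this route for nucleotides, and folate-borne carbon also connects it to the remethylation of homocysteine to methionine.

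In GENCODE v29 (GRCh38), all 10 are protein-coding genes. PRPS1 (ENSG00000147224) lies on the plus strand at chrX:107628424-107651026. PPAT (ENSG00000128059) lies on the minus strand at chr4:56393362-56435615, and PAICS (ENSG00000128050) lies beside it on the plus strand at chr4:56435741-56464579. GART (ENSG00000159131) is at chr21:33503931-33543491 on the minus strand, and PFAS (ENSG00000178921) is at chr17:8247618-8270491 on the plus strand. ADSL (ENSG00000239900) is at chr22:40346500-40390463 and ATIC (ENSG00000138363) at chr2:215311817-215349773, both on the plus strand. On the guanine branch, IMPDH1 (ENSG00000106348) is at chr7:128392277-128410252 on the minus strand, IMPDH2 (ENSG00000178035) at chr3:49024325-49029408 on the minus strand, and GMPS (ENSG00000163655) at chr3:155870536-155944026 on the plus strand.

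PPAT and PAICS are shown first in sequence because they face away from each other across a short shared promoter, so that these enzymes of the route start from opposite strands of the same DNA. RefSeq (GRCh38.p14) gives PPAT 1 start site and PAICS 3. The PPAT start site (56435615) and the PAICS start site nearest to it (56435752) are 137 bases apart on chromosome 4, and 75% of the 136 bases between them are G or C. The stretch between the start sites, chr4:56435616-56435751 on the plus strand, reads from the PPAT side to the PAICS side.

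between PPAT and PAICS start sites: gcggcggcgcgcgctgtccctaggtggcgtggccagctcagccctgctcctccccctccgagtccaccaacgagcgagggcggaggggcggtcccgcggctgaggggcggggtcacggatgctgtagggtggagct

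RefSeq promoter windows of 300 bases (250 before to 50 after the start site) were matched for 8 members, with 12 windows in all; ADSL and IMPDH2 were not matched. Each window was searched on both strands for the E-box CACGTG, the element bound by MYC and related factors, and for the NRF1 element, the ATF4 element TGATGNAAN and the CCAAT box CCAAT. The E-box, whose letters read the same on both strands, was found in windows of PPAT, PAICS and ATIC, and in 7.26% of all 35116 windows. PPAT and PAICS share 1 E-box, beyond the PAICS start site, at position -182 of PPAT and 41 of PAICS (first base of the motif on the gene's own strand, the start site being position 1). ATIC has E-boxes at -46 and 30. The matches are printed below with their flanks, 5′ to 3′ on the strand of the gene, the motif in capitals, from chr4:56435781-56435808 (PPAT), chr4:56435781-56435801 (PAICS), chr2:215312002-215312029 and chr2:215312077-215312104 (ATIC).

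PPAT E-box -182: acggagatttcCACGTGcagcaaataca
PAICS E-box 41: tgtatttgctgCACGTGgaaa
ATIC E-box -46: ggccggcgggcCACGTGataagcccgga
ATIC E-box 30: tcctacctgcgCACGTGgtgccgccgct

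CCAAT boxes were found in windows of GART and PRPS1, and in 34.6% of all windows. The letters of the NRF1 element (1.24% of all windows) and of the ATF4 element (3.61%) were not in the members' windows. A match is a description of the letters only.

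Total counts ran from 28910881 to 38961862 per library. Levels are in CPM, that is, reads counted for a gene per 1e6 counts of its library, on library sizes scaled by trimmed mean of M-values (TMM). Over all libraries ADSL had the fewest counts of the members, 10723, and GART the most, 128767. MeWo replicate 2 stood apart in the number of genes with a count, 34471, where the rest of that line had 30066 to 31433, and the members' calls that were lost without it are named beside their values. In A101D the number of genes with a count was 31281 to 33107 in replicates 1-4 and 34020 to 34607 in replicates 5-8. These ranges do not overlap, and the part of this shift in the results below was not tested. All 8 melanoma and melanocyte markers were detected in both lines, and TYR and TYRP1, enzymes of melanin synthesis, were low in A101D with 418 and 253 counts over 8 libraries. None of 4 leukocyte markers reached the level for testing. Their summed level in A101D was 0.0890 to 0.251 CPM in replicates 1-4 and 0.302 to 0.578 CPM in replicates 5-8. In MeWo it was 0.239 to 0.476 CPM and 0.180 to 0.504 CPM. In A101D the summed level of the 2 endothelial markers was 0.522 to 0.641 CPM in replicates 1-4 and 1.04 to 1.98 CPM in replicates 5-8, and that of the 3 epithelial markers was 0.682 to 1.10 CPM and 1.87 to 2.28 CPM. In MeWo the endothelial sum was 0.389 to 0.518 CPM in replicates 1-4 and 0.194 to 0.650 CPM in replicates 5-8. The epithelial sum in the MeWo sets was 0.445 to 0.920 CPM and 0.769 to 1.01 CPM. The leukocyte, endothelial and epithelial sums were thus higher in A101D replicates 5-8 than in A101D replicates 1-4. The leukocyte markers had at most 34 counts each over the 8 A101D libraries. The part of these markers in the results below was not tested. In these bulk samples, fewer cells and less RNA per cell cannot be told apart.

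Within A101D, 9 of the 10 genes were lower in replicates 5-8 than in replicates 1-4 and none was higher (limma-voom, Benjamini-Hochberg adjusted p under 0.05 over all tested genes). None was higher with limma-trend or at an unadjusted p under 0.05 either. Of all tested genes, 32.4% were lower and 33.2% higher in this comparison. The guanine branch and PAICS had the larger differences, from 1.95-fold for IMPDH1 to 4.70-fold for IMPDH2, while GART and PFAS differed by 1.17-fold and 1.20-fold and ADSL did not pass the test. The median log2 difference of the 10 genes was -0.71, beside 0.01 for all tested genes. For the same 9 genes, every library of replicates 5-8 lay below every library of replicates 1-4, a pattern that 29.6% of all tested genes showed.

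PRPS1, which makes the PRPP the route starts from, had 57.3, 59.1, 59.5 and 58.1 CPM in A101D replicates 1 to 4 and 33.6, 34.8, 33.3 and 37.2 CPM in replicates 5 to 8. The sets did not overlap, and the log2 difference was -0.75 ± 0.05 (SE, adjusted p 6.05e-18 by limma-voom). PPAT, the committed step, had 49.9, 57.1, 50.5 and 51.7 CPM in A101D replicates 1 to 4 and 32.6, 32.0, 32.2 and 35.3 CPM in replicates 5 to 8. Its difference, -0.66 ± 0.05 on the log2 scale (adjusted p 3.72e-15), was of nearly the same size as that of PRPS1.

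Among the enzymes between PPAT and IMP, PAICS moved most in A101D. PAICS, a bifunctional enzyme that carries out steps in the middle of the route, had 194.3, 215.8, 205.5 and 198.5 CPM in replicates 1 to 4 and 74.4, 79.0, 79.0 and 83.3 CPM in replicates 5 to 8. It was 2.57-fold lower in replicates 5-8 (log2 difference -1.36 ± 0.04, adjusted p 1.07e-28), a larger difference than that of PPAT, with which it shares the promoter shown above. ATIC, which closes the ring to give IMP, had 33.7 to 39.3 CPM in replicates 1-4 and 21.7 to 25.1 CPM in replicates 5-8, 1.56-fold lower (adjusted p 2.33e-12).

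GART, a multifunctional enzyme that acts at several early steps, had 283.0 to 310.9 CPM in A101D replicates 1-4 and 247.7 to 254.0 CPM in replicates 5-8 (log2 difference -0.22 ± 0.03, adjusted p 2.18e-07). With upper-quartile factors and total counts the difference of GART was -0.15 and -0.12, still past the test. GART exons share 275 of 7751 annotated bases with SON on the opposite strand, and SON was higher in A101D replicates 5-8, by 0.20 on the log2 scale. The strand setting of the counting is not given in the sources used here, so reads of the shared bases could have gone to either gene or to neither. PFAS, the glutamine-using enzyme that follows GART's formyl transfer, had 124.0 to 129.7 CPM and 100.4 to 109.8 CPM in the sets (log2 difference -0.26 ± 0.04, adjusted p 2.66e-08), and with total counts PFAS differed by -0.16, past the test. ADSL, which acts on the way to IMP and again on the way to AMP, had 20.8 to 23.7 CPM in replicates 1-4 and 17.7 to 21.8 CPM in replicates 5-8. The sets overlapped for ADSL (log2 difference -0.13, 95% interval -0.25 to -0.000567, adjusted p 0.0721). ADSL passed the test without A101D replicate 3 and without the low-count filter (adjusted p over the alternatives 0.0336 to 0.761).

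On the guanine branch IMPDH2 fell furthest of the members in A101D. IMPDH2, the IMP dehydrogenase isoform linked to proliferation, had 230.9, 248.1, 236.0 and 232.0 CPM in replicates 1 to 4 and 44.7, 48.0, 50.9 and 58.5 CPM in replicates 5 to 8. It was 4.70-fold lower in replicates 5-8 (log2 difference -2.23 ± 0.05, adjusted p 2.86e-26). IMPDH1, the second isoform of the same enzyme, had 386.1, 376.1, 395.2 and 384.8 CPM in replicates 1 to 4 and 189.7, 192.2, 197.5 and 210.1 CPM in replicates 5 to 8, 1.95-fold lower (adjusted p 6.28e-25). GMPS, which turns the product of IMPDH into GMP, had 130.4, 143.9, 139.6 and 136.8 CPM and then 44.5, 47.4, 47.8 and 50.9 CPM. GMPS was thus 2.88-fold lower in replicates 5-8 (log2 difference -1.53 ± 0.04, adjusted p 4.74e-29), and the groups lay far apart. ADSL shares 1344 of its 7111 exon bases with AL022238.4 on the same strand, whose counts come to 2.97% of those of ADSL. How reads of the shared bases were counted is not given in the sources used here. The 2.97% therefore does not bound the ADSL reads that could be affected. Annotated pseudogene copies of the members held few reads, at most 2.94% of the member's counts (PRPS1P2).

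**Figure D1:**
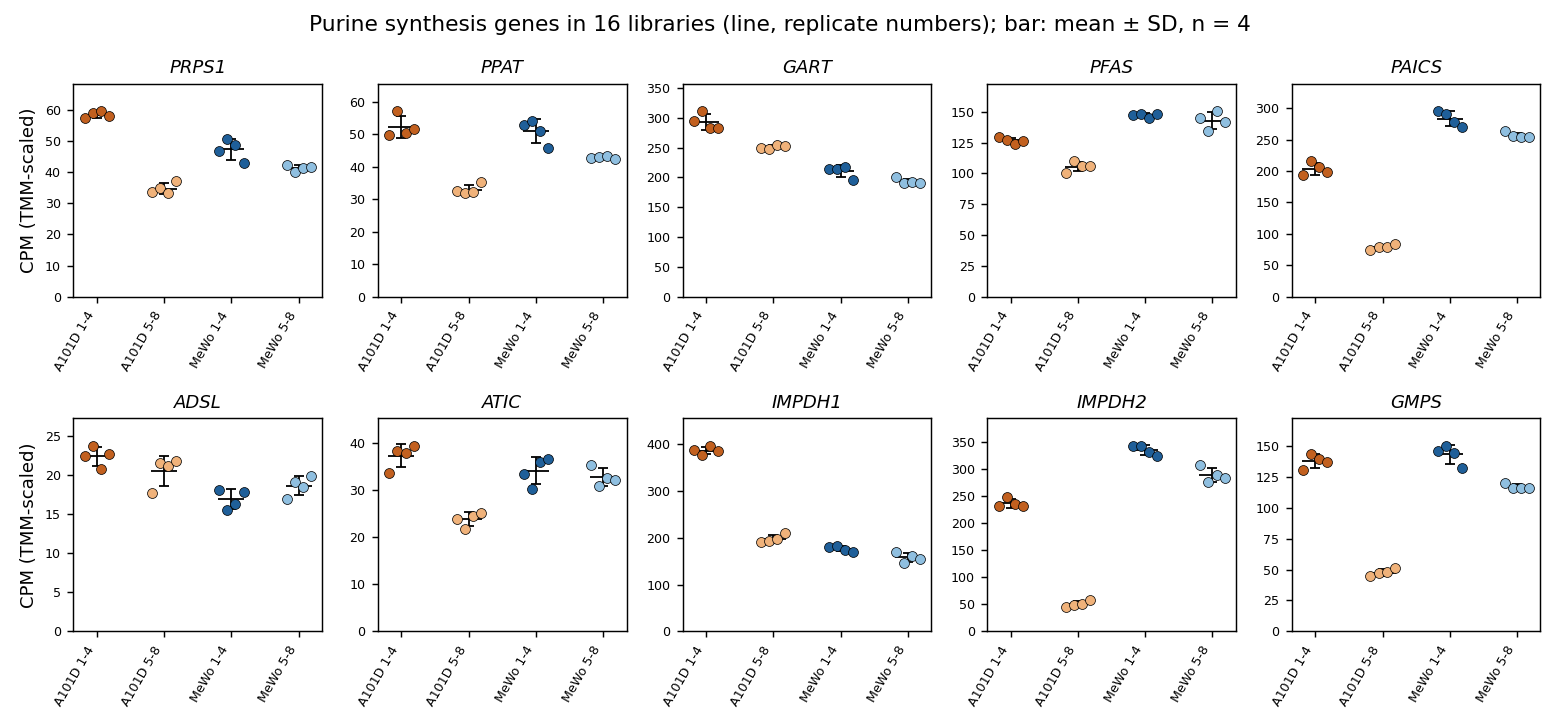
Level of each of the 10 genes in every library, in CPM on a linear axis from 0, by line and replicate set; each point is 1 library and bars are mean ± SD (n = 4). In A101D the points of replicates 5-8 lie below those of replicates 1-4 for every gene except ADSL, with the widest gap for IMPDH2 (44.7 to 58.5 against 230.9 to 248.1 CPM).

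In MeWo the differences between the sets were small, and those that passed the test were in 1 direction. Of the 10 genes, 7 were lower in replicates 5-8, and none was higher by limma-voom or limma-trend (1, ADSL, at an unadjusted p under 0.05). Of all tested genes, 7.45% were lower by this test and 6.16% higher. The 1329 higher genes became 779, 814, 857 and 868 without MeWo replicate 3, 1, 7 or 8, and the 1606 lower genes became 2501 without MeWo replicate 4. The genes were PRPS1, PPAT, GART, PAICS, IMPDH1, IMPDH2 and GMPS, with a median log2 difference over all 10 of -0.15, beside 0.00 for all tested genes. For 6 genes the sets did not overlap, as for 8.79% of all tested genes in that direction. Of the genes called in MeWo in either direction, 45.3% were higher, against 33.5% with median-of-ratios factors and 66.3% with total counts, so the balance of all calls turned on the scaling.

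GMPS had the largest difference of the members in MeWo. Its level was 146.2, 149.9, 144.6 and 132.6 CPM in replicates 1 to 4 and 119.8, 116.3, 116.2 and 116.2 CPM in replicates 5 to 8, a log2 difference of -0.29 ± 0.04 (adjusted p 9.88e-07). IMPDH2 had 324.6 to 342.2 CPM in replicates 1-4 and 275.2 to 306.8 CPM in replicates 5-8 (log2 difference -0.22, adjusted p 0.000549). PPAT had 45.9 to 54.2 CPM and 42.4 to 43.5 CPM (log2 difference -0.25, adjusted p 0.000335). For GMPS, IMPDH2 and PPAT the gap between the sets was smaller than the range within one of them.

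PAICS in MeWo had 294.7, 290.7, 277.5 and 269.2 CPM in replicates 1 to 4 and 263.3, 255.0, 254.4 and 253.7 CPM in replicates 5 to 8 (log2 difference -0.14, adjusted p 0.00374). PRPS1 had 43.0 to 50.7 CPM and 40.0 to 42.3 CPM (adjusted p 0.0027), and IMPDH1 169.8 to 181.3 CPM and 146.6 to 169.6 CPM (adjusted p 0.00243). PAICS, PRPS1 and IMPDH1 were thus 1.10-, 1.14- and 1.12-fold lower in MeWo replicates 5-8. GART had 195.3 to 218.2 CPM and 190.8 to 200.0 CPM, and its sets overlapped. Its call (log2 difference -0.12, adjusted p 0.0164) was lost without MeWo replicate 1, 2, 3 or 8 and with total counts as library sizes. It was -0.18 without MeWo replicate 4, with adjusted p from 0.000168 to 0.0630 over the alternatives.

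The other 3 genes did not pass the test in MeWo. PFAS differed by -0.05 on the log2 scale (95% interval -0.12 to 0.02) and ATIC by -0.06 (95% interval -0.17 to 0.06). ADSL was the single member with a positive difference, 0.14 (95% interval 0.01 to 0.28, adjusted p 0.172). Its MeWo libraries had 15.5 to 18.1 CPM in replicates 1-4 and 17.0 to 19.9 CPM in replicates 5-8, ranges that overlap.

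**Figure D2:**
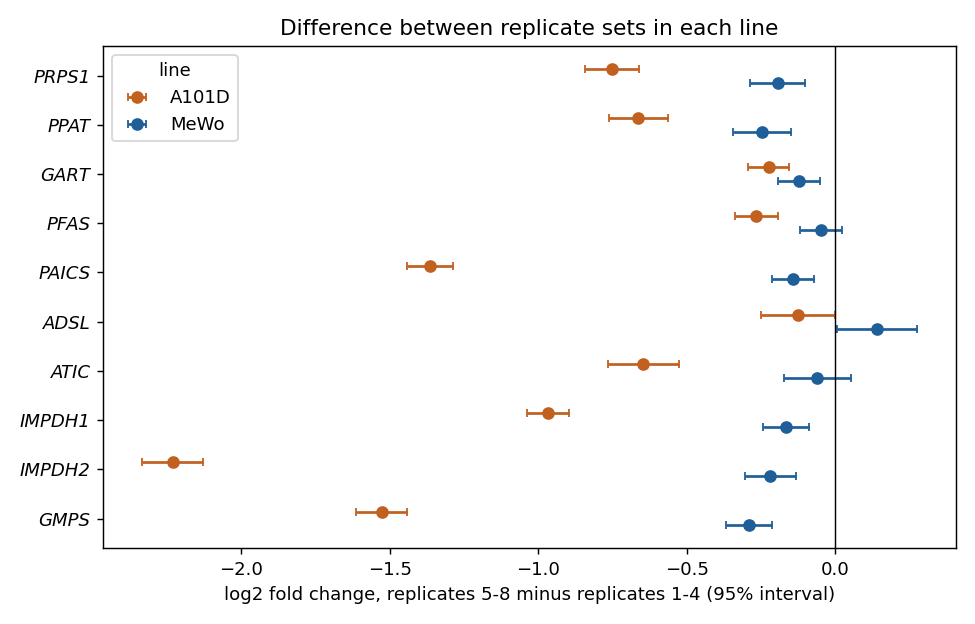
Log2 difference of replicates 5-8 minus replicates 1-4 for each of the 10 genes, in A101D and in MeWo; points are estimates and bars are 95% intervals. IMPDH2 reaches -2.23 in A101D and -0.22 in MeWo, and ADSL has opposite signs in the lines, neither past the test.

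The test of the difference between the lines, the MeWo set difference minus the A101D set difference, passed for 9 genes, all with the more negative set difference in A101D. Of all tested genes, 25.9% passed in this direction and 23.2% in the other. The gap was widest for IMPDH2, 2.01 ± 0.07 on the log2 scale (adjusted p 1.19e-21), followed by GMPS at 1.24 (adjusted p 4e-21) and PAICS at 1.22 (adjusted p 2.16e-22). IMPDH1 (0.80), ATIC (0.59), PRPS1 (0.56), PPAT (0.42) and PFAS (0.22) followed in that order. For ADSL the value was 0.27 (adjusted p 0.0136), and the call was lost without A101D replicate 5, MeWo replicate 2 or MeWo replicate 8, and with upper-quartile factors or total counts (adjusted p over the alternatives 0.00527 to 0.0691). GART did not pass (0.10, 95% interval 0.00470 to 0.201, adjusted p 0.0775), though it did without A101D replicate 3 and without the low-count filter (0.0397 to 0.525 over the alternatives).

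The lines were then compared on the mean of both sets. In MeWo 6 members were higher and 3 lower than in A101D, beside 41.7% and 45.2% of all tested genes, shares near which a count over 10 genes carries little. IMPDH2 was 2.85-fold higher in MeWo (log2 difference 1.51 ± 0.03, adjusted p 8.57e-28), PAICS 2.13-fold (adjusted p 1.5e-32) and GMPS 1.60-fold (adjusted p 7.73e-24). IMPDH1 was 1.65-fold lower (adjusted p 2.89e-26), GART 1.34-fold lower and ADSL 1.21-fold lower. PFAS, PPAT and ATIC were higher by 0.33, 0.17 and 0.17 on the log2 scale, and PRPS1 did not pass the test (-0.03, 95% interval -0.10 to 0.03). All 8 libraries of one line lay on one side of the 8 of the other for 5 genes, GART, PFAS, PAICS, IMPDH1 and IMPDH2, as for 55.2% of all tested genes.

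The line comparison within each set gave other counts. In replicates 1-4, 3 members were higher in MeWo (37.1% of all tested genes) and 5 lower (42.3%). PAICS and IMPDH2 were higher there by 0.48 and 0.50 on the log2 scale and PFAS by 0.22, while IMPDH1 was 2.18-fold lower and GART, ADSL and PRPS1 were lower by 0.48, 0.40 and 0.31. GMPS (0.06, 95% interval -0.02 to 0.14) and PPAT (-0.04, 95% interval -0.13 to 0.06) did not pass in replicates 1-4. GMPS passed without MeWo replicate 4 or MeWo replicate 8 and with upper-quartile factors, with adjusted p from 0.00111 to 0.619 over the alternatives. The call of ATIC (-0.13, adjusted p 0.0366) was lost in 10 of the 16 fits that left out 1 library, those without A101D replicate 2, 3, 4 or 8 or MeWo replicate 1, 2, 3, 4, 7 or 8 (-0.05 without MeWo replicate 2). It was also lost with median-of-ratios factors, upper-quartile factors, total counts and the filter at 1 CPM. Over the alternatives its adjusted p ran from 0.00395 to 0.398.

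In replicates 5-8, 7 members were higher in MeWo (40.3% of all tested genes) and 3 lower (43.9%). IMPDH2 was 5.73-fold higher, PAICS 3.25-fold and GMPS 2.46-fold. ATIC (0.46), PFAS (0.43), PPAT (0.38) and PRPS1 (0.25) were higher by less on the log2 scale, and PRPS1, ATIC and PPAT had the opposite sign to that in replicates 1-4, where PPAT had not passed. IMPDH1 and GART were lower by 0.33 and 0.37. ADSL was 0.14 lower (adjusted p 0.0427), a call lost in 10 of the 16 fits that left out 1 library, those without A101D replicate 6, 7 or 8 or MeWo replicate 1, 2, 3, 4, 5, 6 or 7, and also with limma-trend or no low-count filter. Without A101D replicate 5 it was -0.22 (adjusted p over the alternatives 0.00123 to 0.175).

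Levels of different genes were compared as CPM per kilobase of annotated exon. The length takes in all exon bases annotated for a gene, 7111 for ADSL and 2623 for PRPS1, not those of the transcripts present. The order between genes depends on these lengths. In A101D replicates 1-4 the order ran from IMPDH1 (105 CPM per kilobase) and IMPDH2 (85.4) through GART (37.8), PAICS (27.1), PRPS1 (22.3), PFAS (19.6) and GMPS (15.5) to PPAT (9.62), ATIC (9.49) and ADSL (3.15). PPAT and ATIC, neighbours in that order, did not differ beyond their spread. In A101D replicates 5-8 IMPDH1 was still first at 53.9, but IMPDH2 stood at 18.2, below GART at 32.4, and GMPS at 5.37 lay next to last. In MeWo replicates 1-4 IMPDH2 led at 121 CPM per kilobase, ahead of IMPDH1 at 48.2 and PAICS at 37.7. ADSL was last in every group, at 2.38 to 3.15. Its length includes 1344 bases shared with AL022238.4, whose reads may not all have been counted for ADSL.

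Ratios of levels per kilobase are given for 4 pairs that were chosen after their values had been seen, as a description with no test: the isoforms IMPDH2 and IMPDH1, the promoter partners PAICS and PPAT, the successive enzymes GMPS and IMPDH2, and PAICS and GART. The ratio of IMPDH2 to IMPDH1 was 0.789 to 0.871 in A101D replicates 1-4 and 0.311 to 0.368 in replicates 5-8. IMPDH1 thus had the higher level per kilobase in all A101D libraries. The ratio depends on the annotated exon lengths, 3662 bases for IMPDH1 and 2773 for IMPDH2. In MeWo the ratio was 2.49 to 2.53 in replicates 1-4 and 2.36 to 2.48 in replicates 5-8. There IMPDH2 had the higher level per kilobase in all libraries. The ratio of PAICS to PPAT was 2.73 to 2.94 and 1.65 to 1.79 in the A101D sets and 3.88 to 4.25 and 4.23 to 4.45 in the MeWo sets. GMPS to IMPDH2 stood at 0.176 to 0.185 and 0.271 to 0.311 in the A101D sets, so GMPS made up more of the pair in replicates 5-8, and at 0.127 to 0.137 and 0.122 to 0.132 in the MeWo sets. PAICS to GART stood at 0.681 to 0.749 and 0.308 to 0.340 in the A101D sets and at 1.31 to 1.42 and 1.36 to 1.38 in the MeWo sets.

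**Figure D3:**
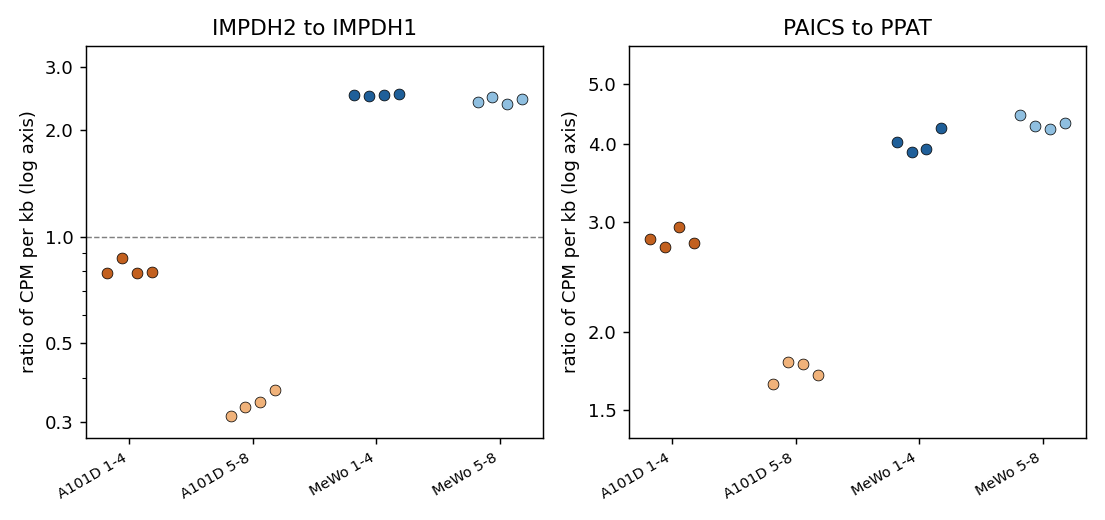
Ratio of IMPDH2 to IMPDH1 and of PAICS to PPAT (levels per kilobase of exon, log axis) in every library, by line and set. The IMPDH2 to IMPDH1 ratio is below 1 in the A101D libraries and above 2 in the MeWo libraries.

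Beside the members, 5 genes supply PRPP or start the AMP branch. In A101D, PRPS2, the second PRPP synthetase, was lower in replicates 5-8 by 0.54 on the log2 scale (122 ± 5.51 to 83.8 ± 4.46 CPM, mean ± SD, n = 4). The adenylosuccinate synthetases ADSS1 and ADSS2 differed by -1.68 and -0.52, at levels of 3.39 to 1.05 CPM and 74.8 to 52.3 CPM. PRPSAP1, a regulatory partner of the PRPP synthetases, was higher by 0.42, and its relative PRPSAP2 did not pass (0.09, adjusted p 0.11; called with upper-quartile factors, total counts or a filter at 1 CPM, 0.000407 to 0.745 over the alternatives). None of the 5 passed between the MeWo sets by limma-voom or limma-trend, nor did any have an unadjusted p under 0.05. ADSS2 (-0.06) did pass by limma-voom without MeWo replicate 4 (adjusted p over the alternatives 0.0471 to 0.725). Without MeWo replicate 2 the ADSS1 difference turned from 0.08 to -0.03, neither past the test. Between the lines, PRPSAP1 was higher in MeWo by 2.04, ADSS1 by 1.09 and ADSS2 by 0.62, and PRPS2 was lower by 0.43. PRPSAP2 was lower by 0.10 (adjusted p 0.00928), a call lost without MeWo replicate 4, 7 or 8 (adjusted p over the alternatives 0.000794 to 0.151).

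Of 17 genes of purine salvage and turnover, 16 were tested (AMPD1 was not). In A101D 6 were higher and 9 lower in replicates 5-8, with a median log2 difference of -0.26, beside 33.2% and 32.4% of all tested genes. In MeWo 2 were lower and none higher, beside 7.45% and 6.16% (limma-voom; also none with limma-trend or at an unadjusted p under 0.05). XDH, xanthine dehydrogenase, which oxidises purines to uric acid, had 0.408 to 0.731 CPM in A101D replicates 1-4 and 7.42 to 13.0 CPM in replicates 5-8 (log2 difference 4.21 ± 0.34, adjusted p 3.51e-10), and 13 counts in all 8 MeWo libraries. HPRT1, which salvages hypoxanthine and guanine and is named here after its values were seen, was lower in A101D replicates 5-8, at 11.4 to 13.7 CPM against 25.1 to 29.9 CPM (log2 difference -1.09). MTAP, which salvages adenine and returns a methylthio group towards methionine, had 6 counts in all 8 A101D libraries and 75.2 to 79.9 CPM in MeWo. GDA, guanine deaminase, had 1 count in the 8 MeWo libraries and 0.940 to 2.47 CPM in A101D. GMPR, which turns GMP back into IMP, was higher in MeWo by 2.19 on the log2 scale at 1.87 to 2.83 CPM. Over the list, 6 of 16 genes were higher and 7 lower in MeWo than in A101D, near the 41.7% and 45.2% of all tested genes.

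The list of 9 genes for 10-formyl-tetrahydrofolate supply also holds ALDH1L1 and ALDH1L2, which consume it. Both consumers had the higher mean in A101D replicates 5-8, ALDH1L2 at 63.7 and 91.6 CPM and ALDH1L1 at 0.782 and 1.19 CPM in the sets. By the test, 6 of the 9 genes were higher and 2 lower in A101D replicates 5-8 (33.2% and 32.4% of all tested genes). The median log2 difference of the list was 0.48. In MeWo 3 were higher and 2 lower (6.16% and 7.45%). MTHFD1, the cytosolic enzyme that makes 10-formyl-tetrahydrofolate, was among the lower ones in A101D, at 95.2 ± 6.32 CPM in replicates 1-4 and 41.3 ± 1.19 CPM in replicates 5-8 (SD, n = 4; log2 difference -1.20). MTHFD2L, a mitochondrial enzyme of the same route, was higher by 0.93, and its relative MTHFD2, named after its values were seen, by 0.95 in A101D and 0.38 in MeWo. Between the lines MTHFD1 was higher in MeWo by 1.09 and MTHFD2L by 0.60. ALDH1L2, the mitochondrial enzyme that consumes 10-formyl-tetrahydrofolate, ranged from 60.3 to 99.4 CPM over the A101D libraries and from 3.24 to 5.01 CPM over those of MeWo. ALDH1L1, its cytosolic counterpart, had at most 1.35 CPM in A101D and 33 counts in all 8 MeWo libraries. Over the list 3 of 9 genes were higher and 6 lower in MeWo, beside 41.7% and 45.2% of all tested genes.

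**Figure D4:**
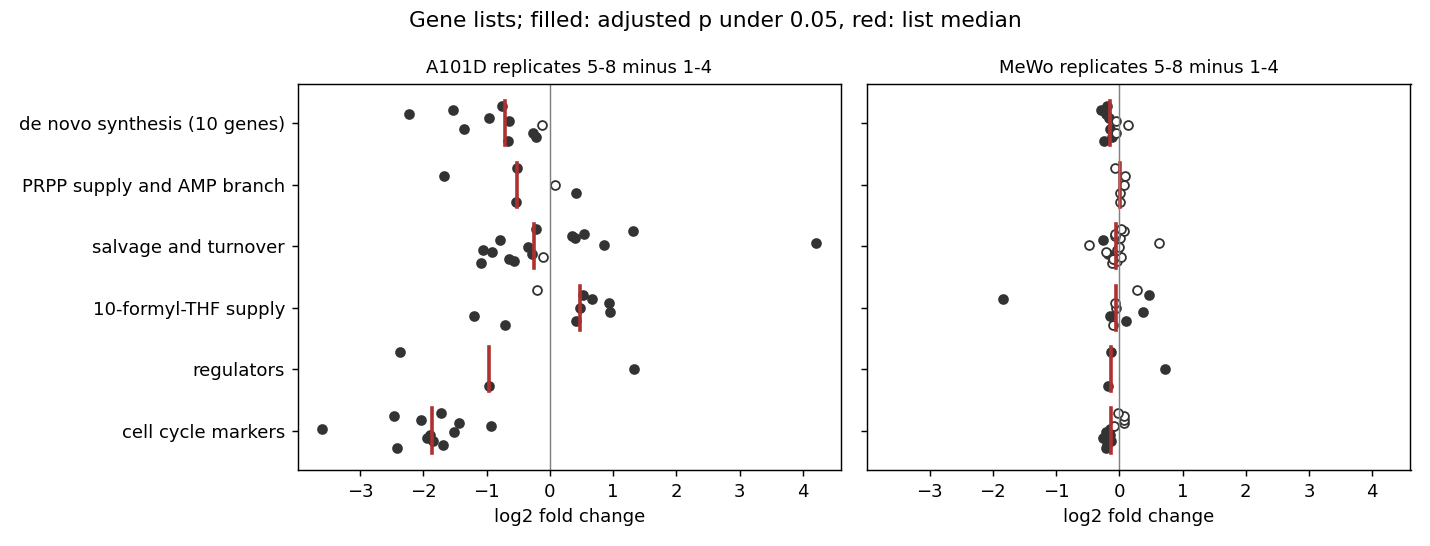
Log2 difference of replicates 5-8 minus replicates 1-4 for every tested gene of each list, in A101D and MeWo; each point is 1 gene, filled where it passed the test, and the red line marks the list's median. The medians in A101D are -0.71 for the 10 de novo genes, -0.26 for salvage and turnover, 0.48 for 10-formyl-tetrahydrofolate supply and -1.87 for the cell cycle markers. The 10-formyl-tetrahydrofolate list also holds ALDH1L1 and ALDH1L2, which consume it.

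Transcription factors known to act on purine and folate genes were read beside the members. MYC, a driver of growth genes that binds the E-box, had 30.4 ± 2.05 and 15.7 ± 0.641 CPM in the A101D sets and 187 ± 8.79 and 167 ± 10.4 CPM in the MeWo sets (SD, n = 4). It was higher in MeWo by 3.01 on the log2 scale and lower in A101D replicates 5-8 by 0.96 and in MeWo replicates 5-8 by 0.17. ATF4, the factor of the amino acid response, had 319 ± 9.45 and 802 ± 18.5 CPM in the A101D sets and 325 (320.8 to 329.6) and 539 ± 23.2 CPM in the MeWo sets, so it was higher in replicates 5-8 of both lines. E2F1, a factor of S-phase entry, had 85.1 ± 3.82 and 16.3 ± 0.307 CPM in the A101D sets, a log2 difference of -2.38, and 71.1 ± 2.65 and 65.0 ± 2.68 CPM in the MeWo sets. The MeWo call of E2F1 (-0.13, adjusted p 0.0228) was lost without MeWo replicate 1 or MeWo replicate 6 and under 2 other scalings (adjusted p over the alternatives 0.00961 to 0.119).

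Cell cycle markers were lower where the members were lower in A101D. All 12 were lower in A101D replicates 5-8 (32.4% of all tested genes), with a median log2 difference of -1.87, and their summed level was 1628 to 1710 CPM in replicates 1-4 and 425 to 453 CPM in replicates 5-8. In MeWo 7 of the 12 were lower and none higher by limma-voom, beside 7.45% and 6.16% of all tested genes. None was higher with limma-trend, and 2 were higher at an unadjusted p under 0.05. The summed levels in MeWo were 2565 to 2681 CPM in replicates 1-4 and 2452 to 2542 CPM in replicates 5-8. MCM2, a subunit of the replicative helicase, had 67.3 ± 3.12 and 12.5 ± 0.675 CPM in the A101D sets, and TOP2A, a topoisomerase of dividing cells, 223 ± 8.58 and 54.4 ± 2.25 CPM (SD, n = 4). In MeWo TOP2A had 497 ± 14.6 and 522 ± 10.6 CPM (log2 difference 0.07, adjusted p 0.109) and MCM2 145.5 ± 6.63 and 125 ± 6.60 CPM. The sum over the 10 de novo genes was 1529 to 1600 CPM in A101D replicates 1-4, 811 to 881 CPM in A101D replicates 5-8, 1383 to 1478 CPM in MeWo replicates 1-4 and 1251 to 1342 CPM in MeWo replicates 5-8. The part of the cell cycle markers in the members' differences was not tested.

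The tested genes outside the list with the profile most like the members' mean, by root-mean-square distance of centred log2 CPM over the 16 libraries, were SORD (0.0264), SLC29A1 (0.0485), GPI (0.0486), COX5A (0.0502) and SLC25A15 (0.0536). SORD is sorbitol dehydrogenase, SLC29A1 a nucleoside transporter, GPI a glycolytic isomerase, COX5A a subunit of cytochrome c oxidase and SLC25A15 a mitochondrial ornithine carrier. Among the members PPAT lay nearest to the mean profile (0.105) and IMPDH2 farthest (0.794), so each member lay farther from the mean profile than these 5 genes, which were chosen for their nearness.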

How the data were processed

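Per the submitters' processing notes, the authors worked with Trimmomatic 0.39-1, STAR 2.7.1a and featureCounts 2.0.0 on GRCh38, with strand setting and annotation release not given in the sources used here. The authors deposited 1 table of raw counts per line, in which each cell joins an Ensembl identifier and a whole-number count; both were separated before use. Symbols were found for 60357 of 60676 identifiers, and exon lengths come from GENCODE v29 (58503 identifiers, 96.4%). All 16 columns were used. The planned edgeR quasi-likelihood test and DESeq2 were not run, because such cells did not pass as counts in a check of units. Genes with 0.298 CPM (10 counts at the median depth) in 4 libraries and 15 counts in all were tested with limma 3.58.1 (R 4.3.3, voom weights, robust empirical Bayes, TMM with trims of 30% and 5%) on cell means of line and set over 16 libraries. The script was tested on simulated data. The members, sets and lists were chosen with earlier results of these data known. Named genes were the members, the PRPP and AMP branch list, the regulators, the extremes of each other list by line difference, and the nearest profiles. Alternatives were other scalings, filters, models and leaving out each library. Counts set the precision; intervals cover the libraries' spread.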

Additional observations from a re-analysis of the deposited data

Results flagged for a closer look

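Among 40 groups of 4 libraries checked over the members, 3 had a library whose gap to its nearest neighbour took up most of the group's range, where chance gives about 1 in 20, or 2. PAICS had 263.3 CPM in 1 library of MeWo replicates 5-8 against 253.7 to 255.0 CPM in the others (gap 0.86 of the range). ADSL had 17.7 CPM in 1 library of A101D replicates 5-8 against 21.2 to 21.8 CPM (0.86). GMPS had 119.8 CPM in 1 library of MeWo replicates 5-8 against 116.2 to 116.3 CPM (0.968).

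The set difference was unequal in the lines, by the test of the difference itself, for 9 members and 7 related genes. That test also passed for 25.9% of all tested genes with a positive value and for 23.2% with a negative one. The values, MeWo minus A101D on the log2 scale, were 2.01 for IMPDH2, 1.24 for GMPS, 1.22 for PAICS, 0.80 for IMPDH1, 0.59 for ATIC, 0.56 for PRPS1, 0.42 for PPAT, 0.27 for ADSL and 0.22 for PFAS. For PRPP supply and the AMP branch they were 1.76 for ADSS1, 0.56 for PRPS2, 0.45 for ADSS2 and -0.41 for PRPSAP1. For the transcription factors they were 2.25 for E2F1, 0.79 for MYC and -0.60 for ATF4 (adjusted p 7.26e-28, 1.51e-11 and 3.17e-15 by limma-voom).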

How the results depend on the processing

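The counts of members called in each comparison stayed within 1.5 times of those reported under every alternative run. Leaving out 1 library gave 6 higher and 3 lower between the lines, 3 to 4 and 4 to 5 in replicates 1-4, 7 and 2 to 3 in replicates 5-8, 9 to 10 lower in A101D, 6 to 7 lower in MeWo and 8 to 10 for the difference between the lines. Of 1430 values recomputed for members, 1378 kept direction and call, 42 lost the call, 7 gained it and 3 changed sign. All sign changes were in values that had not passed. For members they were PRPS1 between the lines without MeWo replicate 4 (0.0191; range -0.0524 to 0.0191) and PPAT in replicates 1-4 without A101D replicate 2 (0.00342) or MeWo replicate 4 (0.0565; range -0.0631 to 0.0565). ATF4 in replicates 1-4 without the filter was -0.00114. In the MeWo set difference, median-of-ratios factors and no filter gave PRPS2 -0.00742 and -0.00538 and PRPSAP1 -0.0130 and -0.0113. Leaving out 1 library gave PRPS2 -0.000199, -0.0302 and -0.0237 (range -0.0302 to 0.0396), PRPSAP1 -0.00590, -0.00318, -0.0254 and -0.00425 (range -0.0254 to 0.00909), and ADSS1 -0.0316 (without MeWo replicate 2; range -0.0316 to 0.140). PRPSAP2 in the difference between the lines was 0.0241 without the filter and 0.000850 without A101D replicate 1 (range -0.0807 to 0.000850). With line as the sole term, the spread within a line holds the set difference, and the line calls of PPAT (adjusted p 0.217), ATIC (0.207), ATF4 (0.347) and E2F1 (0.0505) were lost.

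Same-numbered libraries of the lines did not deviate together (correlations -0.0252 to 0.0780). Such correlations cannot show whether the libraries were paired in culture or processing, and the main fit assumed no pairing. With a replicate block 6 members were higher and 3 lower between the lines, 3 and 5 in replicates 1-4, 7 and 3 in replicates 5-8, and 9 passed for the difference between the lines. Among members and related genes the block ended 1 call, that of PRPSAP2 in replicates 5-8 (adjusted p 0.0533). Over all genes, calls between the MeWo sets numbered 2935, 1597 at a threshold of 0.01, 1892 without the filter and 2073 without MeWo replicate 2. Total counts moved the median of all genes in the A101D set difference by 0.10 on the log2 scale. The cause of these changes was not tested.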
